A study of Mus musculus with 11 samples.

Results

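The matrix proteoglycan genes are 10 genes, taken by symbol from the 46603 genes of a table of read counts from mouse liver. They are 7 small leucine-rich proteoglycans (*Dcn*, *Bgn*, *Lum*, *Fmod*, *Ogn*, *Aspn* and *Prelp*), the hyalectan *Vcan*, and *Hspg2* and *Agrn*, the large heparan sulfate proteoglycans of basement membranes. All livers came from male mice homozygous for the *ob* mutation of leptin, 5 to 6 weeks old on arrival, which were fed the AMLN diet rich in fat with trans-fat, fructose and cholesterol for 15 weeks before and then throughout treatment. All mice had steatosis and fibrosis in a liver biopsy taken before treatment, so that both groups carry the same mutation, diet, surgery and selection. Daily gavage for 8 weeks delivered 10 mg/kg of INT-767, a synthetic bile acid derivative and agonist of the receptors FXR and TGR5, to 4 of the sequenced mice and vehicle alone to 7. The paper gives histology for more mice of each treatment and does not say how the sequenced mice were chosen. Polyadenylated RNA of the left lateral lobe was sequenced, with a total of 7966963 to 15295230 counts per vehicle mouse (median 10878327, n = 7) and 7381211 to 16022459 per INT-767–treated mouse (median 12034846.5, n = 4).

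A proteoglycan is a core protein that carries chains of glycosaminoglycan, a sulfated polymer of sugars that holds water and binds growth factors. The small leucine-rich proteoglycans sit on collagen fibrils, where they set fibril diameter and spacing, and decorin, the product of *Dcn*, also binds TGF-beta. Versican, the product of *Vcan*, forms aggregates with hyaluronan, while perlecan (*Hspg2*) and agrin (*Agrn*) link laminins and type IV collagen within basement membranes. In liver, most of these genes are known as products of stellate cells and fibroblasts, the cells that lay down scar matrix. The measurements are of whole liver, in which fewer cells of a type and less RNA per cell cannot be told apart.

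*Bgn* and *Fmod* were lower in INT-767–treated mice, with log2 fold changes (log2FC, INT-767 over vehicle) of -1.10 for *Bgn* (standard error, SE, 0.31; adjusted *p* = 0.0467) and -1.60 for *Fmod* (SE 0.46, adjusted *p* = 0.0461). *Prelp*, *Hspg2* and *Agrn* had log2 fold changes of -1.05, -1.48 and -1.0 and adjusted *p* just above the threshold of 0.05. *Dcn*, *Lum* and *Ogn* had log2 fold changes above 0 and none passed. Each adjusted *p* comes from edgeR's quasi-likelihood test with Benjamini-Hochberg adjustment over the 13880 genes that passed a filter on low counts. Of the 10 members, 9 passed that filter and *Aspn* did not. Lower with INT-767 were 2 of these 9 and higher 0, where 4.68% of all tested genes were called lower and 5.04% higher. In no member were the 4 INT-767–treated mice all below the 7 vehicle mice, a separation found in 3.64% of all tested genes. The median log2 fold change was -1.0 over the 9 members and -0.01 over all tested genes, and -0.50 and 0.01 in a fit with an offset for GC content and transcript length, described below.

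**Figure D1:**
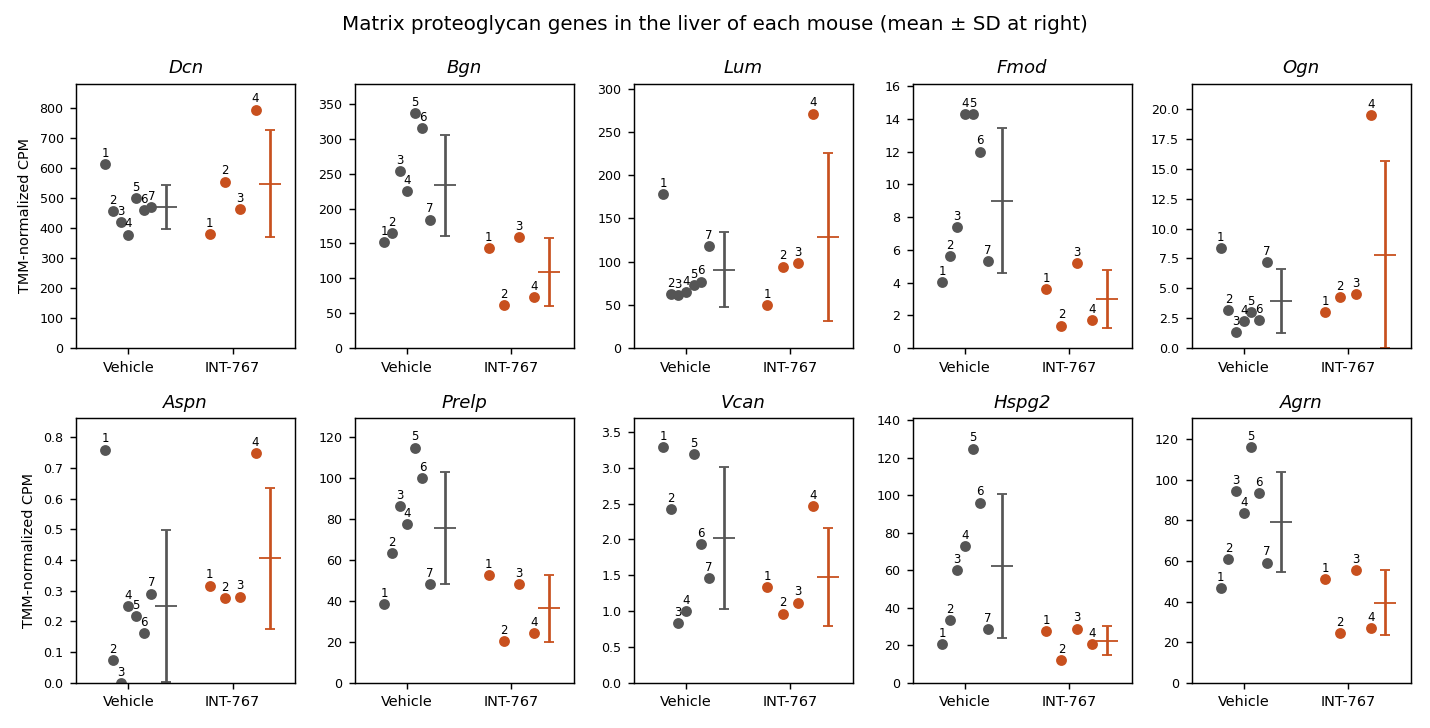
Level of each matrix proteoglycan gene in each mouse, in TMM-normalized CPM (counts scaled to library size, linear axes from 0). Points are mice with their number (grey, 7 vehicle; orange, 4 INT-767), and the bar at the right of each group is the mean ± SD. INT-767 mice 2 and 4 lay lowest of all mice for *Bgn* and *Fmod*, and INT-767 mouse 4 lay highest for *Dcn*, *Lum* and *Ogn*.

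The calls stood close to the threshold and depended on single mice. The share of all tested genes called lower moved with the mouse left out as well. It was 0.767% without INT-767 mouse 2, 3.17% without INT-767 mouse 4 and 2.76%, 2.84%, 2.11% and 1.96% without vehicle mice 3 to 6, and in each of these 6 fits 0 members were called. Without vehicle mouse 1 it was 9.86%, and *Bgn*, *Fmod*, *Prelp*, *Hspg2* and *Agrn* were called. *Bgn* alone was called without vehicle mouse 2 (4.1% of all genes), and *Bgn*, *Fmod* and *Hspg2* without vehicle mouse 7 (5.01%). *Fmod* lost its call without INT-767 mouse 1, where *Bgn*, *Prelp* and *Agrn* were called (5.23%), and kept it without INT-767 mouse 3, beside *Bgn* and *Agrn* (4.32%). DESeq2 called the same 5 genes lower as the fit without vehicle mouse 1, also against 9.86% of all genes. By limma-voom *Bgn* and *Agrn* were called but not *Fmod* (4.11%), and 0 members were called when only genes without any count were removed (1.7%). *Agrn* joined *Bgn* and *Fmod* with scaling by library size only (adjusted *p* = 0.0447, with 7.39% of all genes called lower) and with upper-quartile factors (adjusted *p* = 0.0472, 5.85%).

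Biglycan, the product of *Bgn*, is a small proteoglycan with chondroitin or dermatan sulfate chains that binds collagen and can signal through Toll-like receptors once released from matrix. *Bgn* lies at chrX:73483602-73495933 on the + strand, with up to 9 exons in a transcript (GRCm38, GENCODE M21, as for all loci here). In CPM, the count relative to library size after TMM scaling, its level was 233 ± 72.5 with vehicle (SD, n = 7, range 152 to 337, median 225) and 143, 61.3, 159 and 73.0 CPM in INT-767 mice 1 to 4 (mean 109 ± 49.1). INT-767 mice 1, 2 and 4 were below all vehicle mice, and only vehicle mouse 1 was below INT-767 mouse 3. The exact Mann-Whitney test on CPM, two-sided here and throughout, gave *p* = 0.0121, where 0.00606 is the smallest that 4 against 7 mice allow, without adjustment over the 10 members.

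Fibromodulin, the product of *Fmod*, carries keratan sulfate and competes with lumican for a site on type I collagen. *Fmod*, at chr1:134037254-134048277 (+ strand, up to 3 exons), was a gene of low abundance, with totals of 731 counts over the vehicle group and 127 over the INT-767 group. It had 8.99 ± 4.42 CPM with vehicle (SD, n = 7, range 4.05 to 14.3, median 7.37) and 3.62, 1.38, 5.2 and 1.72 CPM in INT-767 mice 1 to 4. Again 3 of the 4 INT-767–treated mice were below all vehicle mice (exact Mann-Whitney *p* = 0.0121).

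*Prelp* encodes a proline- and arginine-rich repeat protein that anchors basement membranes to the connective tissue beneath. It lies 115.8 kb from *Fmod*, at chr1:133910304-133921414 on the - strand, with 2 genes between them. Its level was 75.7 ± 27.6 CPM with vehicle (SD, n = 7, range 38.5 to 115, median 77.8) and 52.6, 20.4, 48.4 and 24.5 CPM in INT-767 mice 1 to 4, with a log2FC of -1.05 (SE 0.34, adjusted *p* = 0.0687). INT-767 mice 2 and 4 were below every vehicle mouse, while mice 1 and 3 lay within the vehicle range (exact Mann-Whitney *p* = 0.0727). A gene on the opposite strand covers 9.68% of the exon bases of *Prelp*, and whether the counting used strand is not given in the sources used here.

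Perlecan, the product of *Hspg2*, is among the largest core proteins of the matrix, and *Hspg2* has up to 97 exons at chr4:137468769-137570630 on the + strand. It varied widely within the vehicle group, with 20.6 CPM in vehicle mouse 1, 28.8 in mouse 7 and 33.6 in mouse 2, but 60.2, 72.8, 125 and 96.2 in mice 3 to 6. INT-767 mice 1 to 4 had 27.7, 12.1, 29.0 and 20.8 CPM, so that only mouse 2 was below all vehicle mice. The log2FC was -1.48 (SE 0.48, adjusted *p* = 0.0660), and the exact Mann-Whitney *p* was 0.0727. Agrin is best known for clustering acetylcholine receptors at the nerve-muscle junction. *Agrn*, at chr4:156165290-156197488 on the - strand with up to 38 exons, had 79.2 ± 24.5 CPM with vehicle (SD, n = 7, range 46.5 to 116, median 83.8). The INT-767–treated mice had 51.1, 24.6, 55.5 and 27.1 CPM, a log2FC of -1.0 (SE 0.30, adjusted *p* = 0.0525). For *Agrn* 6 of 7 vehicle mice were above all INT-767–treated mice (exact Mann-Whitney *p* = 0.0242).

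*Dcn* and *Lum* are neighbours on chromosome 10, at chr10:97479609-97518143 and chr10:97565128-97572703, both on the + strand with 47.0 kb and 0 genes between them. *Dcn* was the member with the highest CPM. It had 471 ± 73.7 CPM with vehicle (SD, n = 7, range 378 to 613, median 459) and 380, 555, 464 and 795 CPM in INT-767 mice 1 to 4, a log2FC of 0.22 (SE 0.20, adjusted *p* = 0.441). The groups overlapped (exact Mann-Whitney *p* = 0.527), and the 95% interval of the log2FC, by a normal approximation, ran from -0.17 to 0.61. Lumican, the product of *Lum*, is another keratan sulfate proteoglycan of fibrils. Vehicle mice 1 and 7 had 178 and 118 CPM of *Lum* and the other 5 had 61.4 to 76.9, while INT-767 mice 1 to 4 had 49.9, 94.3, 98.3 and 271 CPM. Its log2FC was 0.50 (SE 0.42, adjusted *p* = 0.398, exact Mann-Whitney *p* = 0.648), with an interval from -0.32 to 1.32.

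*Ogn*, which encodes osteoglycin, and *Aspn*, which encodes asporin, lie on the + strand of chromosome 13 at chr13:49608046-49624501 and chr13:49544443-49567565. The single gene between them is *Omd*, another member of the class, described below. *Ogn* had 3.95 ± 2.69 CPM with vehicle (SD, n = 7, range 1.35 to 8.36, median 3.04) and 2.98, 4.28, 4.50 and 19.5 CPM in INT-767 mice 1 to 4. The log2FC of 1.00 (SE 0.56, adjusted *p* = 0.223, exact Mann-Whitney *p* = 0.315) came from INT-767 mouse 4, without which it was -0.0343. The same mouse set the direction of *Dcn* and *Lum*, whose log2FCs without it were -0.0227 and -0.17. *Aspn* had 19 counts in the 7 vehicle mice together and 19 in the 4 INT-767–treated mice. With at most 10 counts in any mouse, a difference was not detectable at this depth (exact Mann-Whitney *p* = 0.164). In the vehicle mouse where no read was counted, up to 3 counts, or 0.311 CPM, remain possible from counting error alone.

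*Vcan*, at chr13:89655312-89742509 on the - strand, was scarce, with totals of 168 counts over the vehicle group and 69 over the INT-767 group. Its level was 2.02 ± 0.994 CPM with vehicle (SD, n = 7, range 0.830 to 3.29, median 1.94) and 1.33, 0.966, 1.12 and 2.47 CPM in INT-767 mice 1 to 4. All INT-767–treated mice lay within the vehicle range (log2FC -0.42, SE 0.42, adjusted *p* = 0.482, exact Mann-Whitney *p* = 0.527).

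Levels of different genes can be set side by side only per length, here as RPKM, the CPM per kilobase of all annotated exons joined. This length was 6099 bases for *Bgn* and 5838 for *Dcn*, while their longest transcripts have 2666 and 4692. The place of *Bgn* in the order and the shares below depend on this choice. The order by longest transcript was not computed. By joined exons *Dcn* ranked highest in vehicle mice, at 80.7 ± 12.6 RPKM (SD, n = 7), above *Bgn* in all 7. *Bgn* at 38.2 ± 11.9 and *Lum* at 37 ± 17.7 RPKM did not differ beyond their spread. *Prelp* followed at 20.9 ± 7.64 and *Agrn* at 8.53 ± 2.64 RPKM, each above the next member in every vehicle mouse. *Hspg2* had 4.37 ± 2.69, *Fmod* 2.72 ± 1.34 and *Ogn* 1.54 ± 1.05 RPKM, with *Fmod* above *Ogn* in 5 of 7 vehicle mice. *Vcan*, at 0.139 ± 0.0687, and *Aspn*, at 0.106 ± 0.105 RPKM, were not separated. In INT-767–treated mice, *Lum* was above *Bgn* in 3 of 4 and *Ogn* above *Fmod* in all 4. The share of *Dcn* in the summed RPKM of the 10 members was 37.3% to 48.9% per vehicle mouse and 46.6% to 61.3% per INT-767–treated mouse, and that of *Bgn* 11.1% to 24.5% and 4.3% to 17.6%. The summed RPKM itself was 160 to 230 per vehicle mouse and 133 to 278 per INT-767–treated mouse.

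Across mice the members moved in 2 blocks, in vehicle mice as well as in the whole series. After the group mean was removed from the log2 CPM, *Dcn* correlated with its neighbour *Lum* over the 11 mice (Pearson's r = 0.91, permutation *p* = 0.00203; Spearman's rho = 0.72, permutation *p* = 0.0281). Adjusted over all 36 pairs of the 9 tested members, these values were 0.00698 and 0.0724. Without INT-767 mouse 4 and vehicle mouse 1, the 2 mice farthest from the median, r was 0.67. *Fmod* correlated with its neighbour *Prelp* (r = 0.91, permutation *p* = 0.00213, adjusted 0.00698; rho = 0.85, permutation *p* = 0.00419, adjusted 0.0151), with r = 0.84 without INT-767 mice 2 and 4. For the basement membrane pair *Hspg2* and *Agrn*, r was 0.89 (permutation *p* = 9.09e-05, adjusted 0.000818) and rho 0.82 (permutation *p* = 0.00134, adjusted 0.00689), with r = 0.88 without vehicle mice 5 and 6. *Dcn* and *Bgn*, close relatives in the class, did not pass (r = -0.57, permutation *p* = 0.14, adjusted 0.174; rho = -0.55, permutation *p* = 0.18, adjusted 0.249), with r = -0.37 without INT-767 mouse 4 and vehicle mouse 1. All permutations were exact, two-sided and within groups.

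As a description only, since the blocks were seen in these values, r was 0.86 to 0.98 for the 10 pairs among *Bgn*, *Fmod*, *Prelp*, *Hspg2* and *Agrn*, 0.83 to 0.93 for the 3 pairs among *Dcn*, *Lum* and *Ogn*, and -0.68 to -0.38 for the 15 pairs between them. None of these 15 passed after adjustment over the 36 pairs. Without the 2 mice farthest from the median, r was 0.84 to 0.97, 0.48 to 0.77 and -0.60 to -0.27, with the lowest of the second range for *Dcn* and *Ogn*. In the 7 vehicle mice alone, r was 0.82 for *Dcn* and *Lum*, 0.88 for *Fmod* and *Prelp* and 0.97 for *Hspg2* and *Agrn*. The genes most like *Hspg2* over the 11 mice by the same measure were *Kirrel* and *Gm34294* (both r = 0.99) and *Col6a1*, a chain of type VI collagen (r = 0.98). Those most like *Dcn* were *Smim6* (r = 0.98), *Cpsf4* and *Sntg1* (both r = 0.97), and most like *Vcan* were *Gm16348* (r = 0.98), *Rbm45* (r = 0.95) and *Ndrg4* (r = 0.91).

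The 2 blocks differed in GC content. The longest transcripts of *Bgn*, *Fmod*, *Prelp*, *Agrn* and *Hspg2* have 51.2%, 53.7%, 53.8%, 56.5% and 60.9% G or C, and those of *Ogn*, *Dcn* and *Lum* 36.3%, 37.4% and 41.9%. *Vcan*, at 43.7%, was placed in neither block. Its r was -0.25 to -0.08 with the 5 genes of the first. Without the 2 mice farthest from the median it was -0.67 to -0.10, lowest with *Prelp*. With the 3 genes of the second block, r was 0.53 to 0.67 (-0.04 to 0.36 without INT-767 mouse 4 and vehicle mouse 1). The highest of these was with *Dcn* (permutation *p* = 0.0139, adjusted 0.0356; rho = 0.62, permutation *p* = 0.0457, adjusted 0.11), with r = 0.82 in the vehicle mice alone. All tested genes with an annotated GC content were put in 5 bins of 2767 genes each. The median log2FC was 0.34 in the bin of lowest GC content (31.0% to 43.6%) and -0.22 in the bin of highest (55.2% to 75.5%), and 1.37% and 6.61% of their genes were called lower. The libraries themselves differed in this way within groups. The median log2 deviation from the mean of the 11 mice, taken in the bin of highest GC content minus the bin of lowest, was 0.61, 0.42, 0.60 and 0.47 in vehicle mice 3 to 6, -0.60, 0.03 and -0.11 in vehicle mice 1, 2 and 7, and -0.08, -0.54, -0.13 and -0.60 in INT-767 mice 1 to 4. Vehicle mice 3 to 6, high by this measure, were also the 4 highest for *Bgn*, *Fmod*, *Prelp*, *Hspg2* and *Agrn*, vehicle mouse 1, low by it, was the lowest vehicle mouse for the same 5 genes, and INT-767 mice 2 and 4, low by it, were the lowest for *Bgn*, *Fmod*, *Prelp* and *Agrn*.

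The comparison of the groups was repeated with an offset that took out the trend of every library with GC content and transcript length. The correlations between mice were not computed with it, and the part of GC content in them was not tested. With the offset, *Bgn* had a log2FC of -1.0 (SE 0.28, adjusted *p* = 0.0328) and *Fmod* of -1.43 (SE 0.40, adjusted *p* = 0.0328), so that both calls held. *Prelp* (-0.84, adjusted *p* = 0.0482) and *Agrn* (-0.50, adjusted *p* = 0.0262) were called as well, against 5.86% of all genes lower in this fit. Both basement membrane genes had smaller log2FCs than without the offset, with *Hspg2* at -0.72 (SE 0.25, adjusted *p* = 0.0702). Those of *Lum* and *Ogn* were 0.12 and 0.26, and *Dcn* changed sign to -0.22 (SE 0.14, adjusted *p* = 0.285). *Vcan* moved from -0.42 to -0.07 (SE 0.44, adjusted *p* = 0.926).

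**Figure D2:**
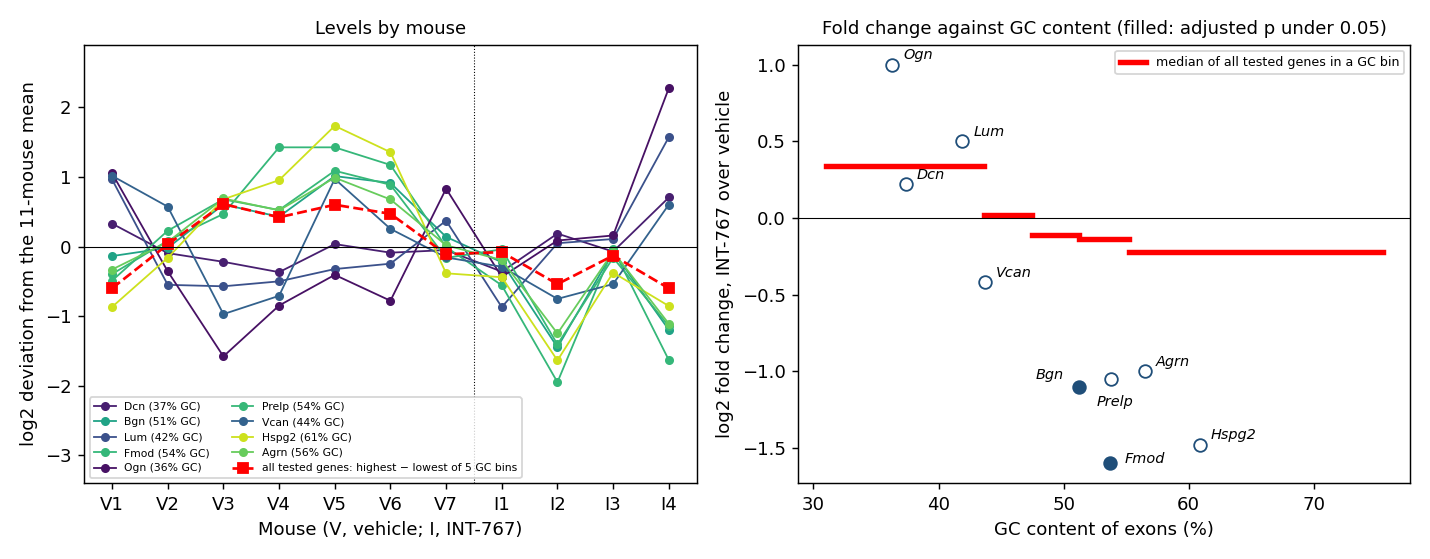
Left, log2 CPM of the 9 tested members in each mouse as the deviation from the mean of 11 mice, coloured by GC content, with the difference between the highest and the lowest bin of all tested genes by GC content in red. Right, log2FC of each member against the GC content of its longest transcript (axis labelled exons; filled, adjusted *p* under 0.05), with the median of all tested genes in each of the 5 bins as red lines. Members above 51% GC content follow the red line by mouse, high in vehicle mice 3 to 6, and lie below the red lines at the right.

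**Figure D3:**
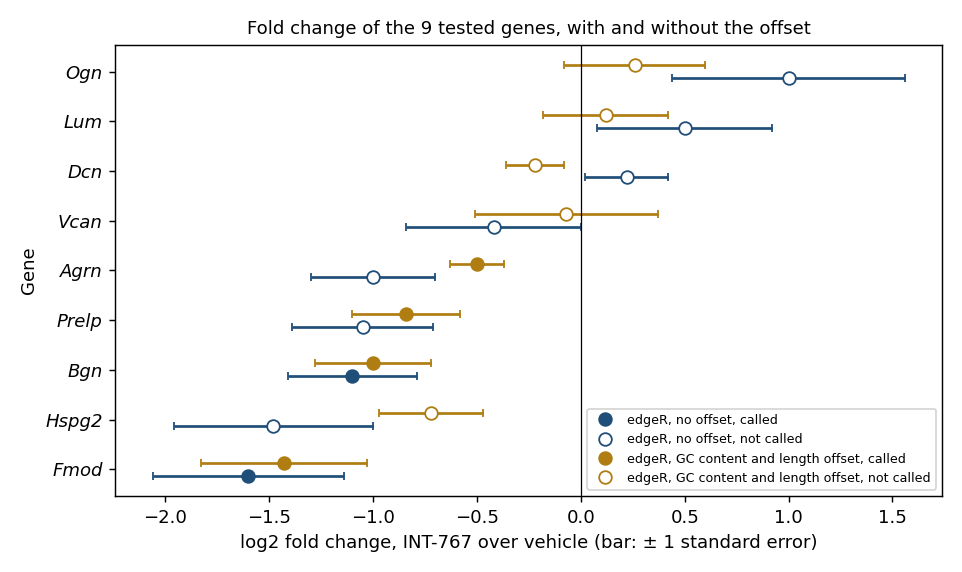
Log2 fold change (INT-767 over vehicle) of the 9 tested members by edgeR without (blue) and with (yellow) the offset for GC content and length. Bars are ± 1 standard error and filled points were called. *Bgn* and *Fmod* are filled in both fits, and *Hspg2* and *Agrn* move toward 0 with the offset.

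The DNA before the start sites differed between these members too, and is shown for the 2 called genes, the 2 basement membrane genes and *Ogn*. RefSeq (GRCm38.p6) promoters were at hand for 8 of the 10 members, among them neither *Dcn* nor *Lum*. The 200 bases from 250 to 51 before each start were searched on both strands. The letters were TATAAA for the motif of the TATA-binding protein, and GGGCGG for the motif of Sp1, called a GC box. They were AGGTCA for the site of a single nuclear receptor, TGANTCA for AP-1, and, for the pair of FXR and its partner RXR, the inverted repeat AGGTCANTGACCT, which contains the single site. Matches are in capitals, and some in *Agrn* and *Ogn* overlap or adjoin.
Agrn (chr4:156197539-156197738, - strand): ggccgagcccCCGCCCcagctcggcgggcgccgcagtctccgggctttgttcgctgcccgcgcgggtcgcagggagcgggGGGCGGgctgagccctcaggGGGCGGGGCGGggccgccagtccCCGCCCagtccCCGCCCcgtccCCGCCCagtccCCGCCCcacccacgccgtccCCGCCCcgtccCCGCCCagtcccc
Hspg2 (chr4:137468553-137468752, + strand): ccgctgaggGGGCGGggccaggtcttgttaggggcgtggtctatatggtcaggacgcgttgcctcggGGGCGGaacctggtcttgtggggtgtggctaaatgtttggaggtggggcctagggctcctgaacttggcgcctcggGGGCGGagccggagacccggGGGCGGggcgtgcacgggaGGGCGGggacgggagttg
Bgn (chrX:73483351-73483550, + strand): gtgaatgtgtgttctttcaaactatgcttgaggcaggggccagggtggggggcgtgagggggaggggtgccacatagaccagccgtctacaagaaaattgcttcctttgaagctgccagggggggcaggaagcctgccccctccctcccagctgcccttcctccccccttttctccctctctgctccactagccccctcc
Fmod (chr1:134037004-134037203, + strand): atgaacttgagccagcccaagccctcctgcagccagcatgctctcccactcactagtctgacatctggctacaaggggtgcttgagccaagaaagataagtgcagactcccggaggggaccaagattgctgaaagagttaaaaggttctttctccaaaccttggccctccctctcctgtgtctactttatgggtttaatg
Ogn (chr13:49607765-49607964, + strand): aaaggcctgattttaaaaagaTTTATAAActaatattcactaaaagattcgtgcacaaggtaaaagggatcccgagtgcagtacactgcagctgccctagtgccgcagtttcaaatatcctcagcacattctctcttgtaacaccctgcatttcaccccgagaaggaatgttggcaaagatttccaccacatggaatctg
*Agrn* holds 10 GC boxes, *Hspg2* 5 and *Vcan* 1, and the other 5 promoters none, where 24.6% of 32851 promoters hold at least 1. *Ogn* and *Aspn* each hold 2 matches to the motif of the TATA-binding protein, found in 9.14% of promoters. They lie far from the start, at 227 and 229 bases in *Ogn* and 178 and 207 in *Aspn*. Bases nearer than 51 to the start were not searched, so the counts do not show which promoters have a TATA box there. None of the 8 holds the single receptor site (11.4% of promoters), the inverted repeat (0.00304%) or the AP-1 site (5.57%) in this window. GC content was 84% in *Agrn*, 70% in *Hspg2*, 61.5% in *Bgn*, 51% in *Fmod*, 42.5% in *Ogn* and 27.5% in *Aspn*, with a median of 51.5% over all promoters.

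Ratios of 2 genes within a mouse do not depend on how libraries are scaled. For every 100 counts of *Dcn*, vehicle mice had 24.9 to 68.6 counts of *Bgn*, and INT-767 mice 1 to 4 had 37.7, 11.1, 34.3 and 9.19. The log2 ratio of *Bgn* to *Dcn* was 1.33 lower with INT-767 on average, -2.39 ± 1.07 (SD, n = 4) against -1.06 ± 0.56 (n = 7), and 2 of 4 INT-767–treated mice lay below all vehicle mice. The exact Mann-Whitney *p* was 0.0424, or 0.127 once adjusted (Benjamini-Hochberg) over the 6 ratios examined. *Dcn* to *Col1a1*, the gene of the main chain of type I collagen, shifted the most. It was 1.5 to 13.9 counts of *Dcn* per count of *Col1a1* in vehicle mice and 13.3 to 141 in INT-767–treated mice, with log2 means of 2.03 ± 1.42 (SD, n = 7) and 5.05 ± 1.5 (n = 4). The groups overlapped in 1 INT-767–treated mouse (exact *p* = 0.0121, adjusted 0.0727). The 2 genes of each of these ratios differ in GC content, and the part of this in the ratios was not tested.

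In the other 4 ratios the groups overlapped and none passed. *Lum* to *Dcn* differed by 0.16 on the log2 scale (exact *p* = 0.788, adjusted 0.945) and *Vcan* to *Dcn* by -0.54 (exact *p* = 0.164, adjusted 0.327). *Hspg2* to *Agrn* differed by -0.27 (exact *p* = 0.527, adjusted 0.791) and *Hspg2* to *Col4a1*, a chain of the type IV collagen network, by 0.08 (exact *p* = 1, adjusted 1). With 4 against 7 mice, these values do not show that the ratios were equal.

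**Figure D4:**
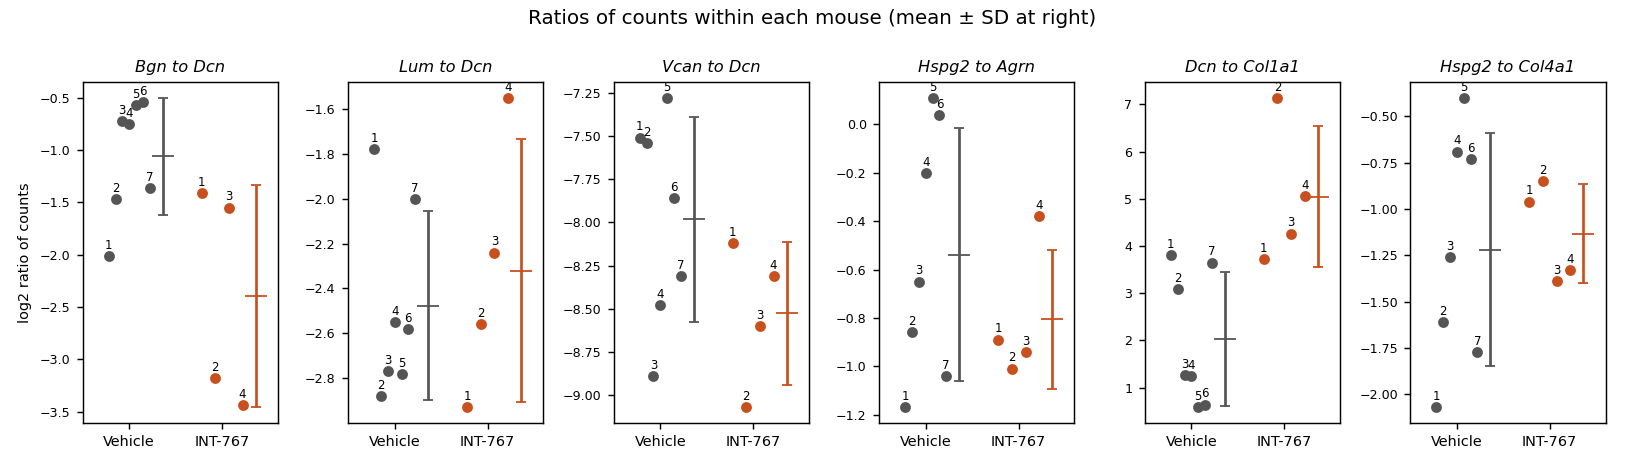
Log2 ratio of the counts of 2 genes within each mouse (0.5 added to each count), for 6 pairs. Points are mice with their number (grey, vehicle; orange, INT-767), and bars are the mean ± SD (the axes do not start at 0). For *Bgn* to *Dcn* 2 of 4 INT-767–treated mice lie below the vehicle range, and for *Dcn* to *Col1a1* 3 of 4 lie above it.

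Among 11 other small leucine-rich proteoglycans and relatives, 6 were tested and 1 was called. *Omd*, which encodes osteomodulin, a keratan sulfate proteoglycan known from bone, rose from 8.53 ± 5.04 CPM (SD, n = 7, range 4.28 to 18.0) to 37.0 ± 20.3 (n = 4, range 17.6 to 55.9). Its log2FC was 2.12 (SE 0.42, adjusted *p* = 0.0122), in the direction opposite to *Bgn* and *Fmod*, and 1.42 with the offset for GC content and length (adjusted *p* = 0.00154). *Omd* was no longer called without INT-767 mouse 2 (adjusted *p* = 0.0577). The median of the 6 was 0.52, against -0.01 over all tested genes. Of 12 other hyalectans, link proteins and related genes, only 4 were tested and 0 called. The most abundant were *Cd44*, a receptor for hyaluronan (log2FC -0.67, adjusted *p* = 0.0759), and *Srgn*, the proteoglycan of secretory granules (-0.21, adjusted *p* = 0.462). Leaving out INT-767 mouse 4 brought *Cd44* to -1.04 and a call (adjusted *p* = 0.00313), and it was also called by DESeq2 (adjusted *p* = 0.0348) and with library size only, and *Srgn* with the offset (-0.63, adjusted *p* = 0.0294).

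The cell-surface proteoglycans moved in both directions, with 2 of 9 tested genes higher and 1 lower and a median log2FC of -0.17. *Sdc2*, a syndecan that spans the membrane, rose from 111 ± 29.7 CPM (SD, n = 7) to 193 ± 25.2 (n = 4), a log2FC of 0.79 (SE 0.19, adjusted *p* = 0.0272). *Sdc1*, the main syndecan of hepatocytes, rose from 259 ± 63.6 to 434 ± 106 CPM (log2FC 0.75, adjusted *p* = 0.0487), and *Sdc3* fell from 86.9 ± 29.4 to 42.1 ± 11.2 (log2FC -1.04, adjusted *p* = 0.0348). The calls of *Sdc2* and *Sdc3* were each lost without INT-767 mouse 2 or 4 or any one of vehicle mice 3 to 6. That of *Sdc1* was lost for 9 of the 11 mice left out, all but vehicle mouse 1 and INT-767 mouse 3, and also with library size only, upper-quartile factors, either other filter or limma-voom. Adjusted *p* reached 0.148 over the mice left out, and with the offset *Sdc3* was at -0.68 (adjusted *p* = 0.0163).

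The enzymes that build the sugar chains are set beside the 4.68% of all tested genes called lower and 5.04% called higher. None of 5 tested enzymes of the linker that joins chain to core passed (median 0.13), and the most abundant, *B3gat3*, had a log2FC of 0.70 (adjusted *p* = 0.137, and 0.31 without INT-767 mouse 4, adjusted *p* = 0.501) and *Fam20b* of -0.18 (adjusted *p* = 0.52). Of 13 tested heparan sulfate enzymes also 0 were called (median -0.27), with *Ndst1*, which starts sulfation of the chain, at -0.31 (adjusted *p* = 0.48) and *Hs6st1* at -0.02 (adjusted *p* = 0.951). Of 15 tested chondroitin and dermatan sulfate enzymes, 3 were lower and 0 higher (median -0.31). *Chst11*, a chondroitin 4-O-sulfotransferase, fell from 3.06 ± 0.913 CPM (SD, n = 7) to 1.04 ± 0.437 (n = 4) with no overlap between the groups (log2FC -1.57, adjusted *p* = 0.0196). *Chpf2*, a polymerizing factor, fell by 0.98 (adjusted *p* = 0.0332), and *Ust*, a uronyl 2-sulfotransferase, by 1.03 on the log2 scale (adjusted *p* = 0.0474, and 0.0956 with the offset). Among the fits with a mouse left out, *Chst11* lost its call only without INT-767 mouse 2. *Chpf2* lost it for 8 of the 11 mice left out (vehicle mice 2 to 6 and INT-767 mice 1, 2 and 4) and *Ust* for 9 (vehicle mice 3 to 7 and every INT-767–treated mouse), and *Ust* also under limma-voom and with no filter beyond 1 count. With the offset *Chpf2* was at -0.59 (adjusted *p* = 0.0411).

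Of 12 tested enzymes that cleave proteoglycans or their chains, 11 had a log2FC below 0 and 1 was called (median -0.51). *Adamts9*, a protease that cuts versican, fell from 16.2 ± 3.76 CPM (SD, n = 7) to 6.36 ± 3.26 (n = 4) with no overlap (log2FC -1.36, SE 0.30, adjusted *p* = 0.0191, and 0.0612 without INT-767 mouse 2). The collagens on which these proteoglycans sit were all below 0 in the 10 genes tested, with a median log2FC of -1.46 and 3 called lower. They were *Col1a1* (-2.96, adjusted *p* = 0.0297), *Col1a2* (-2.35, adjusted *p* = 0.0272) and *Col6a3* (-1.68, adjusted *p* = 0.0408). Of 14 basement membrane partners of perlecan and agrin, 5 were lower, 0 higher, and the median was -1.01. *Col4a1* (-1.29, adjusted *p* = 0.0234), *Col15a1* (-1.41, adjusted *p* = 0.0253), the laminin gene *Lama5* (-1.78, adjusted *p* = 0.0261) and *Nid1*, which joins laminin to type IV collagen (-0.98, adjusted *p* = 0.0357), led them. None of these 7 was called without INT-767 mouse 2, and each lost its call for 1 to 7 of the 11 mice left out in turn, with adjusted *p* up to 0.13. The 3 collagens were also not called with no filter beyond 1 count. With the offset for GC content and length the log2FCs of *Col6a3*, *Lama5*, *Col4a1* and *Nid1* were -1.06, -1.11, -0.85 and -0.60, over 1.5 times smaller, and *Nid1* was not called (adjusted *p* = 0.124). *Col18a1*, the most abundant of the basement membrane partners, was at means of 709 CPM with vehicle and 693 with INT-767. Its log2FC was -0.03 (adjusted *p* = 0.938).

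**Figure D5:**
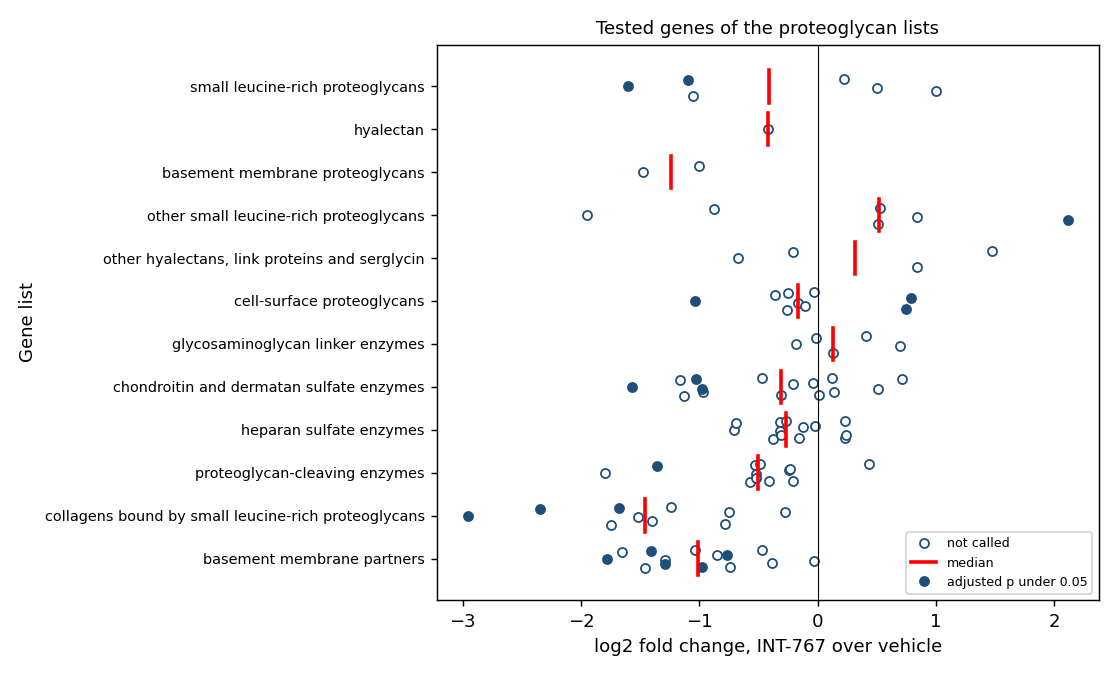
Log2 fold change (INT-767 over vehicle) of each tested gene of the matrix proteoglycan families and 9 related lists. Filled points had an adjusted *p* under 0.05 and red bars are medians. The collagen and basement membrane lists lie wholly below 0, with *Col18a1* close to it at -0.03, while small leucine-rich proteoglycans lie on both sides.

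Markers of the cells that could be the source of these RNAs were measured in the same livers. Of 9 tested markers of quiescent stellate cells, which include the retinol enzyme gene *Lrat*, 1 was higher and 0 lower (median 0.05), with a summed level of 261 to 503 CPM per vehicle mouse and 296 to 433 per INT-767–treated mouse. Its most abundant gene was *Reln* with vehicle (mean 112 CPM) and *Rgs5* with INT-767 (mean 91.4 CPM). The one called was *Angptl6* (1.26, adjusted *p* = 0.0129). Of 10 tested myofibroblast markers 4 were lower (median -0.97). These were *Loxl2* (-1.63, adjusted *p* = 0.0168) and *Loxl1* (-1.20, adjusted *p* = 0.0291), enzymes that crosslink collagen, *Pdgfrb*, a growth factor receptor of stellate cells (-1.31, adjusted *p* = 0.0302), and *Col1a1*, which is in the collagen list as well. The list's summed level, most of it *Spp1*, was 838 to 2008 CPM with vehicle and 421 to 1419 with INT-767, and *Cthrc1* had 2 counts in all. Of 8 tested portal fibroblast markers 3 were lower (median -0.66), *Fbln2* (-1.41, adjusted *p* = 0.0236), *Eln* (-1.44, adjusted *p* = 0.0282) and *Mfap4* (-1.08, adjusted *p* = 0.0282), with a summed level of 278 to 356 CPM with vehicle and 149 to 300 with INT-767, most of it *Gas6*. None of these 7 fibroblast genes was called without INT-767 mouse 2, and each lost its call for 1 to 6 of the 11 mice left out.

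Mesothelial markers, which label the capsule of the liver, summed to 10.8 to 22.8 CPM with vehicle and 17.7 to 24.8 with INT-767, with *Gpm6a* the most abundant (means 6.97 and 6.81 CPM). Of 5 tested, 1 was higher, *Lrrn4* (1.97, adjusted *p* = 0.00329), and *Muc16* had 11 counts in all mice. Of the macrophage markers 2 of 9 were lower, *Csf1r* (-1.14, adjusted *p* = 0.00498) and *Cd68* (-1.16, adjusted *p* = 0.00944), and the list summed to 552 to 772 and 305 to 746 CPM, with *Cd5l* the most abundant (means 219 and 215 CPM). None was called among 4 tested smooth muscle genes (median -0.41; *Smtn* -1.34, *Des* -0.47; summed 12.8 to 36.9 and 7.04 to 22.5 CPM), 8 sinusoidal endothelial genes (median -0.18; *Stab2* -0.97, *Fcgr2b* -0.16; 155 to 300 and 148 to 214 CPM) and 7 cholangiocyte genes (median -0.63; *Spp1* -0.44, *Sox9* -0.61; 735 to 1936 and 356 to 1359 CPM). *Spp1*, at means of 994 CPM with vehicle and 732 with INT-767, made up most of the cholangiocyte sum as well as of the myofibroblast sum. With the offset *Stab2* was at -0.43, *Des* at -0.28, *Sox9* at -0.38 and *Spp1* at -0.83, and over the mice left out *Spp1* ran from -0.88 to -0.19. Of 8 hepatocyte genes 0 were called, 5 had a log2FC above 0 and 3 below (median 0.34). The most abundant were *Alb* (0.57, adjusted *p* = 0.0891) and *Apoa1* (0.52, adjusted *p* = 0.0746), and the list summed to 54034 to 73449 CPM with vehicle and 55669 to 101034 with INT-767 so that it was abundant in every liver. DESeq2 called *Smtn*, *Sox9*, *Alb* and *Apoa1* (adjusted *p* = 0.0269, 0.0231, 0.0266 and 0.0146), and *Smtn*, *Sox9* and *Stab2* were called without vehicle mouse 1 (adjusted *p* = 0.037, 0.0425 and 0.0352). *Alb* reached an adjusted *p* of 0.0219 without INT-767 mouse 4 and *Apoa1* of 0.0313 without INT-767 mouse 1, and *Sox9* was called also with library size only and with upper-quartile factors. The part of any of these cell types in the levels of the matrix proteoglycans was not tested.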

How the data were processed

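Liver RNA of 7 vehicle and 4 INT-767–treated mice was compared, with groups from the sample labels. The authors aligned 75-cycle reads of stranded mRNA libraries to GRCm38 with STAR, of which the paper and the submitters' processing notes name different versions. The deposited values are raw read counts per gene, not normalized. How reads were counted, with or without strand, and in which batches is not given in the sources used here. By the study's methods each sample is 1 mouse. No 2 libraries were copies of each other.

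Counts were scaled by TMM factors to CPM, filtered by filterByExpr (minimum count 10, minimum total 15) and tested with edgeR 4.0.16 in R 4.3.3 (glmQLFit with the robust option, then glmQLFTest, groups as sole term), with Benjamini-Hochberg adjustment over 13880 genes and a threshold of 0.05. Single members were also compared by an exact Mann-Whitney test on CPM. For correlations 0.1 was added to each CPM before taking log2. Exon lengths (all annotated exons joined), GC content (longest transcript) and coordinates came from GENCODE M21, in which 46091 of the 46603 genes were found. Alternatives were RLE, upper-quartile and no scaling factors, other filters, DESeq2 1.42.0, limma-voom (limma 3.58.1), a threshold of 0.01, a replicate block, an offset for GC content and length (lowess, span 0.3) and each mouse left out. The tests were checked on simulated counts, but the outcome is not given here and no result rests on it.

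Genes named are the 10 members, up to 4 called genes of smallest adjusted *p* in each list or, where none was called, the 2 most abundant tested, the genes of the 6 ratios, and the 3 genes most like *Dcn*, *Vcan* and *Hspg2*. *Lrat*, *Reln*, *Rgs5*, *Gas6*, *Gpm6a*, *Muc16*, *Cthrc1*, *Cd5l* and *Col18a1* were named after their values were seen. Members and lists were chosen with earlier results of these data known. The limit given for a count of 0 covers counting error only, as the reads carry no molecular identifiers. The intervals of log2 fold changes take the SE of the edgeR fit, which includes the spread between mice, times a normal quantile. They are narrower than intervals from the reference distribution of the edgeR test. Figures were drawn with matplotlib 3.10.9.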

Additional observations from a re-analysis of the deposited data

Results flagged for a closer look

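In 32 groups of values (10 members and 6 ratios, each in both treatment groups), 3 had a mouse that stood far from the rest by Dixon's criterion, which chance alone meets in about 5% of groups. *Ogn* was at 19.5 CPM in INT-767 mouse 4, with 0.908 of the range of its group between it and the next mouse. *Aspn* was at 0.748 CPM in the same mouse (0.913 of the range) and at 0.76 CPM in vehicle mouse 1 (0.616 of the range). Both *Aspn* values rest on few reads, 10 and 6 counts.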

How the results depend on the processing

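Of the members, 2 were called in the reported fit, 5 by DESeq2, 4 with the offset for GC content and length, and 0 with no filter beyond 1 count, at a threshold of 0.01 or with a replicate block, and leaving out each mouse gave 0 to 5. For all tested genes the reported count was 1349, against 2811 by DESeq2, 245 at a threshold of 0.01, 0 with the replicate block and 274 to 3276 with a mouse left out. Vehicle and INT-767–treated mice share numbers, and the labels do not say that a number pairs mice. Deviations of same-numbered mice from their group means correlated at -0.69, 0.215, 0.148 and -0.482. So few values, each over a whole library, cannot show or exclude a pairing. With the block *Bgn* had a log2 fold change of -0.96 (adjusted *p* = 0.441) and *Fmod* of -1.39 (adjusted *p* = 0.499). Scaling by library size only moved the median of all genes to -0.22 and left 332 genes higher and 1026 lower (upper-quartile factors 467 and 812, reported fit 700 and 649). It moved *Dcn* to -0.00941, and the offset moved it to -0.22, *Ndst1* to 0.0915 and *Hs6st1* to 0.26. *Bgn*, *Fmod*, *Prelp*, *Hspg2* and *Agrn* kept a log2 fold change below 0 in every alternative run. Over the mice left out, the log2 fold change was -0.0227 to 0.36 for *Dcn*, -0.17 to 0.77 for *Lum*, -0.0343 to 1.28 for *Ogn* and -0.21 to 0.11 for *Hs6st1*, the CPM difference -4.88 to 133.50 for *Dcn*, -9.77 to 63.80 for *Lum* and -0.0308 to 5.46 for *Ogn*, and the log2 ratio difference -0.0579 to 0.22 for *Hspg2* to *Col4a1* and -0.0985 to 0.36 for *Lum* to *Dcn*. With a mouse left out, the log2 fold change of *Ndst1* ran from -0.48 to -0.11 and that of *Fam20b* from -0.34 to -0.0494. It ran from -0.40 to -0.0725 for *Srgn* and from -0.22 to -0.0904 for *Fcgr2b*. A pseudocount of 5 changed no ratio's side of the threshold. The cause of these changes was not tested. Depth limits *Aspn*, *Vcan*, *Fmod* and *Ogn* most.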
